A study of Xenopus laevis with 8 samples.

Results

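Genes that carry the Wnt/β-catenin signal inside the cell, or that set how long its receptors stay on the cell surface, were followed in RNA sequencing of whole *Xenopus laevis* embryos. They were chosen by name: an entry of the deposited count table was a member when its identifier, without a final .L or .S, was 1 of 31 gene symbols. Of these symbols 30 were found, and they gave 49 of the 49086 entries in the table. *X. laevis* is allotetraploid, and many of its genes are kept as an L and an S homeolog, so 19 symbols had 2 entries and 11 had 1. The entries comprised 24 L copies, 23 S copies and 2 without a suffix, *csnk1a1* and *lef1*. All 49 passed the filter on low counts, which kept 25448 genes, and every adjusted p-value was adjusted over those genes.

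The study asked what is lost when embryos lack the Wnt ligand Wnt11b. M/Z embryos came from eggs of *wnt11b* mutant females fertilised with mutant sperm, so that neither the maternal nor the zygotic gene copies were wild type. The controls, +/Z, came from eggs of wild-type females fertilised with mutant sperm and therefore carried the same mutant allele on the paternal side. Both were collected at stage 9, the late blastula, and at stage 10.5, the gastrula, with 2 libraries per group and a pool of 3 embryos in each. The mothers of the groups differed together with the genotype of the embryos, and the effects of the *wnt11b* allele and of the mother cannot be told apart. The paper calls the 2 libraries of a group biological replicates. Which females laid the eggs of a given pool is not stated, so the p-values measure the spread between pools and may not cover that between mothers.

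In the absence of a Wnt signal, the scaffold proteins Axin and APC hold β-catenin so that casein kinase 1 and GSK3 phosphorylate it, and the ubiquitin ligase β-TrCP then marks it for degradation. When the signal stops this, β-catenin accumulates, enters the nucleus and binds TCF/LEF proteins, where it takes the place of Groucho corepressors and brings in Bcl9 and Pygopus. In the frog embryo, β-catenin from maternal supplies acts first on the dorsal side to start the organiser, and zygotic Wnt8 later uses the same machinery on the ventral and lateral sides.

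The libraries held 24720921 to 37265579 counts, of which the members took 0.408% to 0.480%. Levels are in CPM, counts scaled to a common library size, after scaling by the trimmed mean of M values (TMM). They are not per length, so levels of different entries are not ranked. A floor of 3 counts corresponded to 0.0715 to 0.136 CPM, and such limits cover counting error only. The mutant allele is a small deletion, and the *wnt11b.L* level, 30.1 to 72.0 CPM over the 8 libraries, did not pass the test at either stage (edgeR quasi-likelihood test, Benjamini-Hochberg adjusted p = 0.92 and 0.20), so counts do not check the genotype. For the stage labels, 13 entries of gastrula genes summed to 53.4 to 129.7 CPM at stage 9 and to 1151 to 2102 CPM at stage 10.5. At stage 9 they summed to 53.4 and 55.1 CPM in M/Z and to 129.7 and 80.6 CPM in +/Z. Of the 13, 4 were called lower in M/Z there (30.8%, beside 5.93% of all genes) and 0 higher. At stage 10.5, 4 were called lower and 2 higher in M/Z (30.8% and 15.4%, beside 6.39% and 6.68% of all genes). The list shares *gsc* with the maternal β-catenin targets and *tbxt* with the Wnt8 targets below, so its sums do not check the stage apart from the genotype. A list of 7 maternal entries did not fall in sum, with 859.5 to 1146 CPM at stage 9 and 1412 to 1793 CPM at stage 10.5. Of the 6 of them tested, 3 were called lower at stage 10.5 than at stage 9 in +/Z and 2 higher (50% and 33.3%, beside 23.2% and 23.3% of all genes). In M/Z 1 was called lower and 2 higher (16.7% and 33.3%, beside 15.6% and 16.7%). Their median log2 change was −0.72 in +/Z and −0.24 in M/Z. In a list of 14 adult tissue and liver genes, 8 to 13 were at 0 counts in each library, and the list summed to at most 4.28 CPM. One library stood apart, M/Z stage 10.5 replicate 2. Its gastrula genes summed to 1151 CPM against 1740.1, 2102 and 2101 CPM in the other 3 gastrula libraries, and its 29 listed entries of Wnt8 target genes to 1859.8 CPM against 3098, 2998 and 2854 CPM. The paper also describes variability between replicates, with M/Z replicates 1 and 2 as an example, and relates it to the variable phenotypes. It reports delayed gastrulation in embryos of mutant mothers. Neither the values with this library nor those without are taken as the better estimate. Counts of calls among the members are therefore given with and without it. So are the called genotype differences at stage 10.5 and the larger uncalled ones that moved by over 1.5 times when it was left out. Leaving it out leaves M/Z replicate 1 alone in its group, so a lost call can also reflect the smaller group. Where no share of all genes stands beside a count, a change in the members cannot be told from a change over all genes. With 2 libraries per group, groups can often lie apart without a true difference, so lack of overlap is described and not read as a test.

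At stage 9, 5 of the 49 members differed between the genotypes, 3 with more RNA in M/Z and 2 with less. These were *lgr5.S*, *tnks.L* and *frat1.S* on the higher side and *tle2.S* and *ctnnb1.S* on the lower. The share, 10.2%, lay near the 11.9% of all genes that were called at this stage (6.01% higher, 5.93% lower), so the count itself does not set the members apart. Leaving out any 1 of the 4 stage 9 libraries left 1 call, or 2 without +/Z replicate 2, and *lgr5.S* was called without each. With the spread estimated from the stage 9 libraries alone, 13 members were called, 8 higher and 5 lower, beside 31% of all genes.

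At stage 10.5, 4 members differed, *axin1.S* and *tcf7l2.L* higher and *tle1.L* and *tle2.S* lower, which is 8.16% beside a background of 13.1% (6.68% higher, 6.39% lower). The main fit shares its estimate of the spread over both stages, and replicates lay further apart at stage 10.5. With the spread estimated from the stage 10.5 libraries alone, none of the 49 was called. Where no share of all genes is given, here and below, a count is not read as a result about the members. Without M/Z replicate 2 none of the 49 was called, while the background was 5.67%. Without M/Z stage 10.5 replicate 1, 15 were called, beside 19.5% of all genes. None was called without +/Z stage 10.5 replicate 2, or without any 1 of the stage 9 libraries. Scaling to library totals in place of TMM moved the median of all genes up by 0.19 on the log2 scale, and 7 members were then called higher and 0 lower.

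Over the mean of both stages, 11 members were called, 7 higher and 4 lower (22.4%, beside 24% of all genes, 12% higher and 12% lower). With library totals these counts were 9 higher and 2 lower. Leaving out 1 of the 4 stage 9 libraries left 4 and 6 calls (M/Z replicates 1 and 2) or 5 and 4 calls (+/Z replicates 1 and 2), and leaving out M/Z stage 10.5 replicate 1 gave 17, beside 27.8% of all genes. The calls of *ctnnb1.S*, *frat1.S*, *lgr5.S* and *tle2.S* held without each library in turn, and each of the other 7 was lost without 2 to 7 of the 8 libraries. Leaving out M/Z stage 10.5 replicate 2 gave 10 calls, beside 18.9% of all genes. The median log2 difference of the 49 members was 0.06 at stage 9 and 0.08 at stage 10.5, against 0.00 and 0.02 over all genes. No member passed the test of whether its genotype difference changed between the stages, beside a background of 0.0472%. In that test 7 had an unadjusted p under 0.05, the smallest adjusted p was 0.19, and DESeq2 called 2, *lgr5.S* and *tnks.L*.

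**Figure D1:**
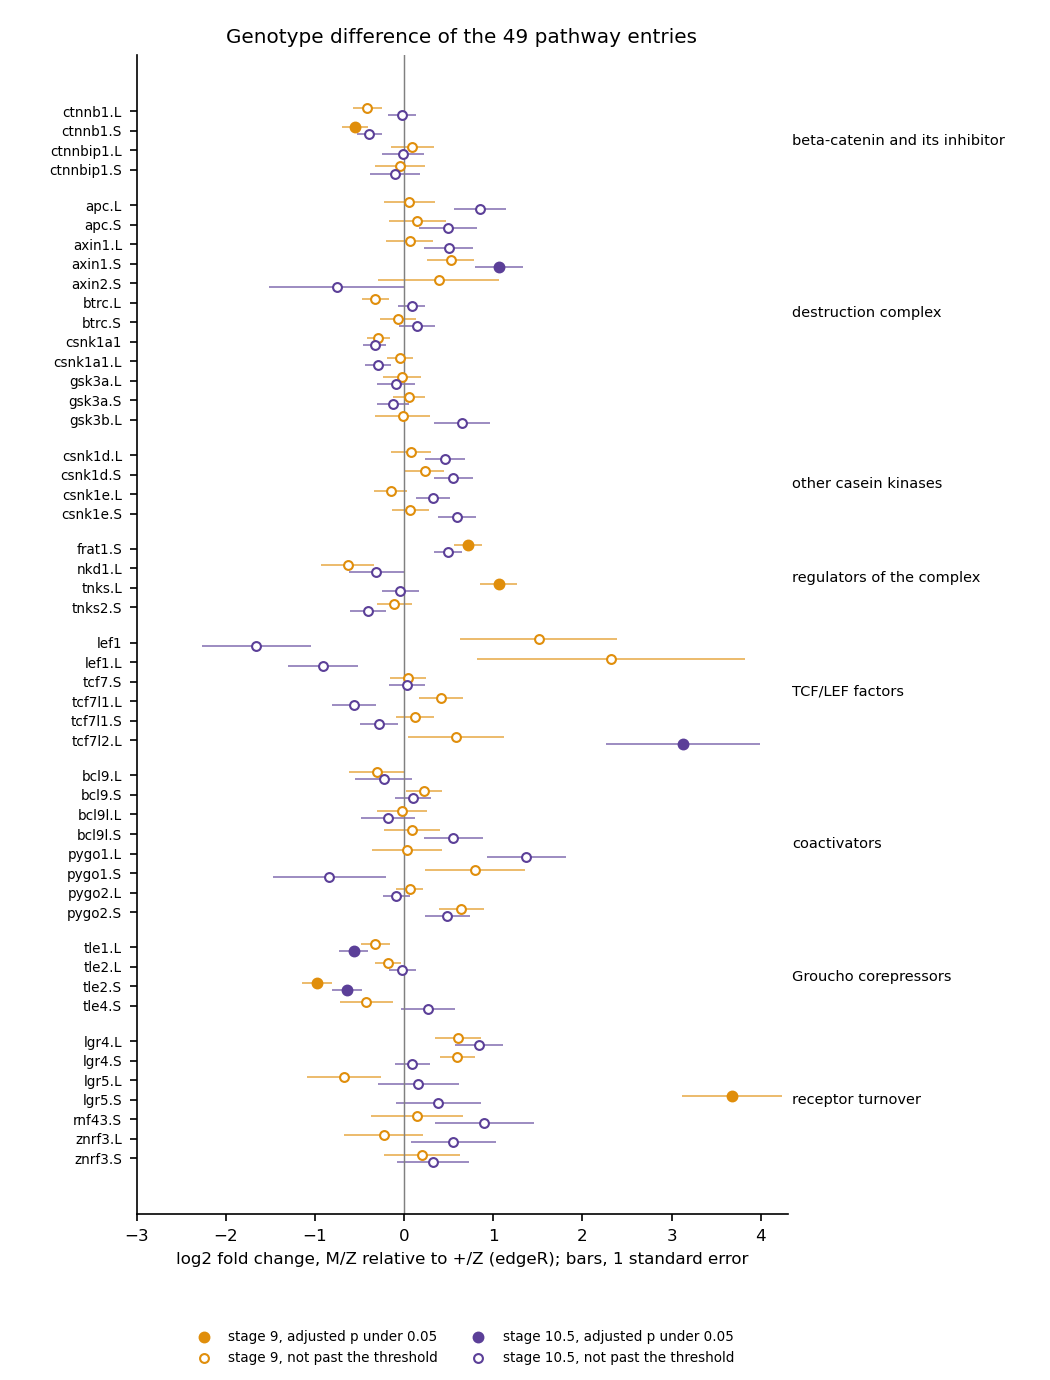
Log2 difference between M/Z and +/Z embryos for each of the 49 members at stage 9 and stage 10.5, grouped by role, with bars of 1 standard error from the edgeR fit over all 8 libraries; filled points passed an adjusted p of 0.05. Most points lie near 0 at both stages, with 5 filled points at stage 9 and 4 at stage 10.5, and *tle2.S* alone is filled at both.

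More members were called between the stages than between the genotypes. From stage 9 to 10.5 in +/Z embryos, 10 members rose and 23 fell, beside 46.5% of all genes called (23.3% higher, 23.2% lower). In M/Z embryos 6 rose and 21 fell, beside 32.3% of all genes (16.7% higher, 15.6% lower). The share of members that fell, 46.9% in +/Z and 42.9% in M/Z, lay above the share of all genes that fell, and the share that rose lay below. The members were more abundant, with a stage 9 median of 42.5 CPM in +/Z and 49.6 in M/Z, against 9.31 and 9.47 for all genes tested. Calls depend on counts, so shares of members and of all genes are not like for like, here and between the genotypes. The median log2 change of the members was −0.56 in +/Z and −0.52 in M/Z, while that of all genes was 0.01 and 0.02. Library totals moved the medians of all genes by −0.32 and −0.21, and the counts were then 6 higher and 26 lower in +/Z and 5 higher and 27 lower in M/Z. Leaving out M/Z stage 9 replicate 1 gave 11 calls in M/Z in place of 27, and leaving out M/Z stage 10.5 replicate 1 or 2 gave 18 or 28. RNA per cell and the number of cells of a type cannot be told apart in whole embryos. The libraries captured polyadenylated RNA, so a change in RNA amount and in the polyadenylated part of it cannot be told apart either.

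**Figure D2:**
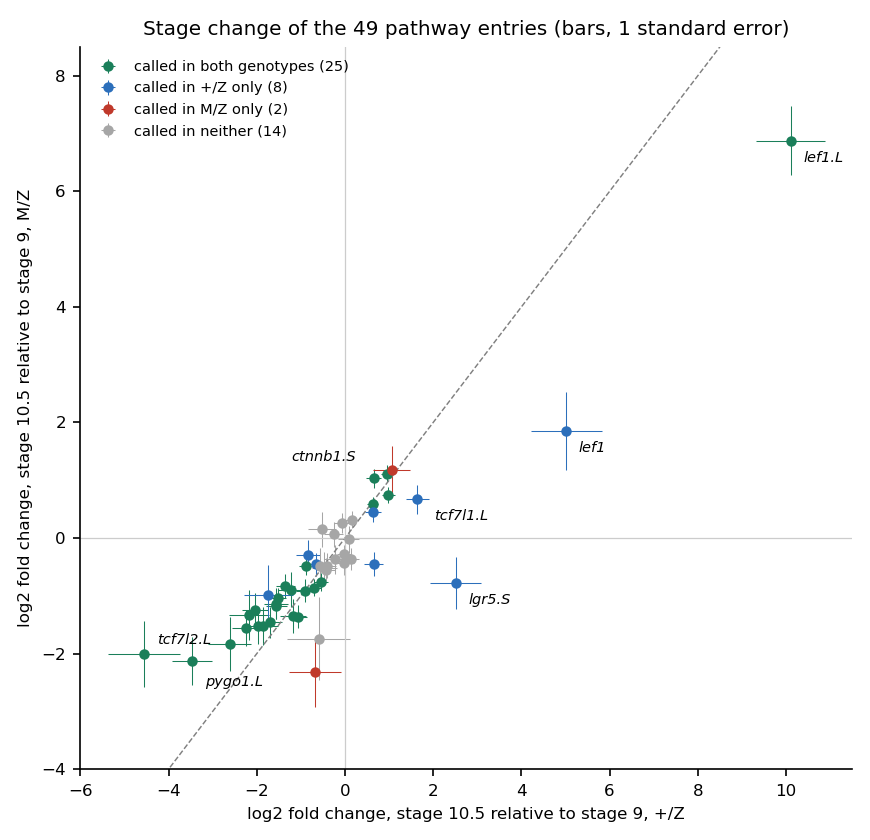
Log2 change from stage 9 to stage 10.5 in +/Z embryos (horizontal axis) and in M/Z embryos (vertical axis) for the 49 members, as fitted by edgeR, with the line of equal change. Of the 49, 25 were called in both genotypes, 8 in +/Z only, 2 in M/Z only and 14 in neither, and those called in both lay on the same side of 0 in both; the fitted values of *lef1.L* and *tcf7l2.L* on the +/Z axis rest on libraries with 0 to 3 counts and are not fold sizes.

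The members that fell in both genotypes numbered 20, and those that rose in both were 5, the 2 *ctnnb1* copies, the 2 *csnk1a1* entries and *lef1.L*. The calls of *axin1.S*, *btrc.S* and *rnf43.S* as lower were made in +/Z only, and that of *pygo1.S* in M/Z only. As higher, *gsk3a.S*, *lef1*, *lgr5.S*, *tcf7l1.L* and *tnks.L* were called in +/Z only and *znrf3.S* in M/Z only. The test of a difference in stage change between the genotypes is the same test as that of the genotype difference between stages, and it called none of them.

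RNA of *ctnnb1*, the gene for β-catenin, was called lower in M/Z embryos in its S copy at stage 9 and over the mean. It rose between the stages in both copies. The level of β-catenin protein was not measured. At stage 9, *ctnnb1.S* stood at 372 and 435 CPM in the M/Z libraries and at 598 and 584 CPM in the +/Z libraries. The groups did not overlap, and the M/Z level was 0.683 of the +/Z level (log2 −0.55, standard error 0.14, adjusted p = 0.032, edgeR). At stage 10.5 it stood at 933 and 818 CPM in M/Z against 1164 and 1132 CPM in +/Z, again without overlap, but the difference of −0.39 did not pass the test (adjusted p = 0.094, edgeR). Its mean difference over both stages was −0.47 (adjusted p = 0.0079, edgeR). Leaving out 1 library at a time moved the stage 9 value between −0.66 and −0.44, and the call was lost without any 1 of the 4 stage 9 libraries.

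The L copy stood at 445 and 461 CPM in M/Z and 593 and 611 CPM in +/Z at stage 9. The groups were apart here too, but the log2 difference of −0.41 did not pass (adjusted p = 0.14, edgeR). At stage 10.5 the groups overlapped, with 1032 and 825 CPM in M/Z and 1049 and 839 CPM in +/Z, and the difference was −0.02. Added together, the copies were lower, with a log2 difference of −0.48 at stage 9 (adjusted p = 0.049, edgeR) and of −0.35 over both stages (adjusted p = 0.027, edgeR). At stage 10.5 alone their difference of −0.22 did not pass (adjusted p = 0.32, edgeR), and without M/Z stage 10.5 replicate 2 it was −0.08 and the mean, −0.28, was not called (adjusted p = 0.095, edgeR). From stage 9 to 10.5, *ctnnb1.L* rose by a log2 value of 0.65 in +/Z and 1.04 in M/Z, and *ctnnb1.S* by 0.96 and 1.12.

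Ctnnbip1, known as ICAT, binds β-catenin and keeps it from TCF proteins. Neither copy of its gene was called in any comparison. The L copy ranged from 47.9 to 81.1 CPM over all 8 libraries and the S copy from 15.7 to 32.5 CPM, with overlapping groups at both stages.

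**Figure D3:**
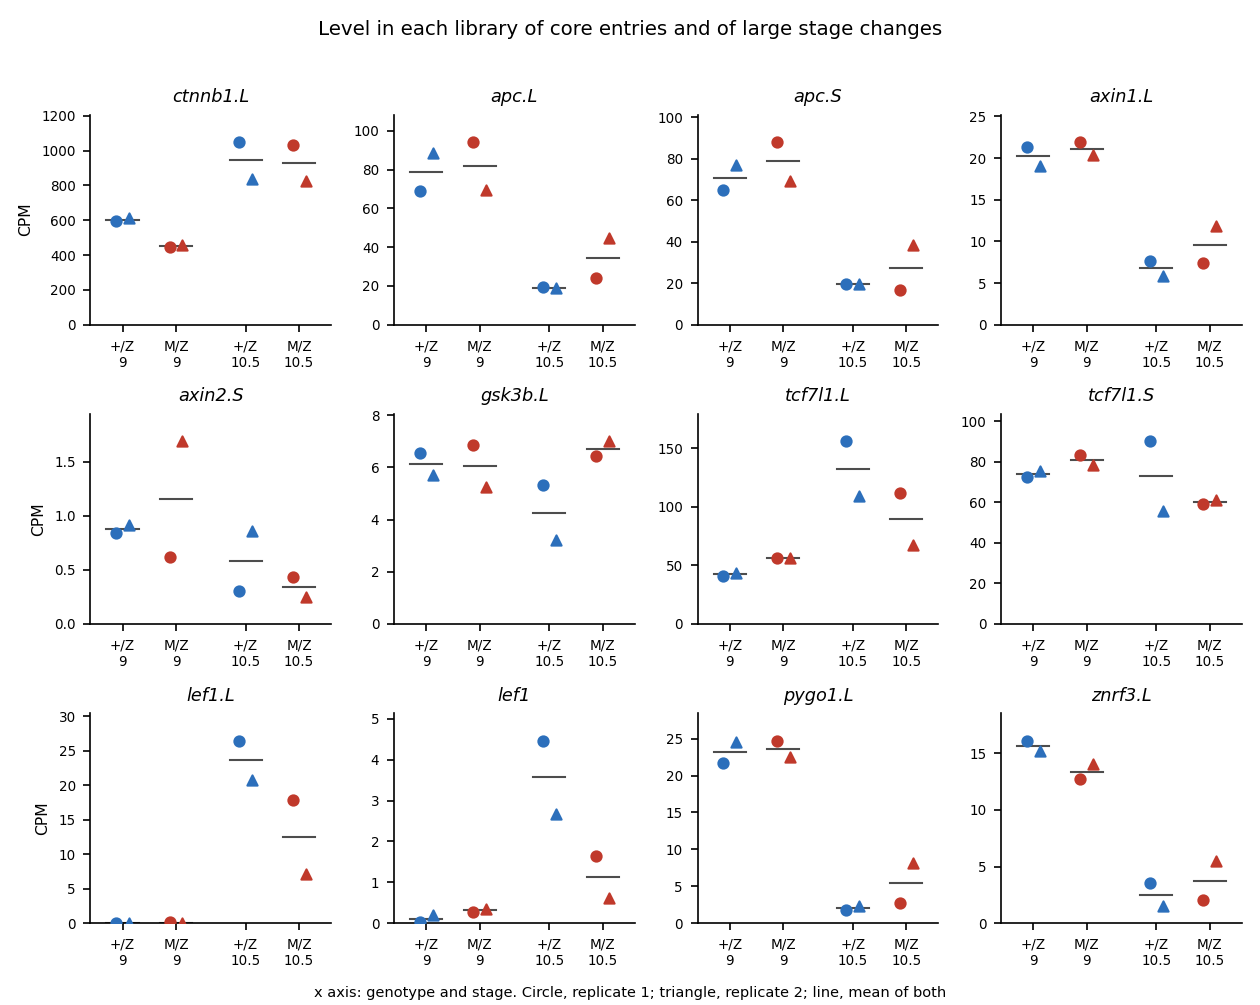
Level in CPM (vertical axis from 0, 1 scale per panel) in each of the 8 libraries for 12 core members and members with large stage changes, with circles for replicate 1, triangles for replicate 2 and a line at the mean of both. *ctnnb1.L*, *tcf7l1.L* and both *lef1* entries lie higher at stage 10.5, the *apc* copies, *axin1.L*, *pygo1.L* and *znrf3.L* lie lower, and in those 5 the M/Z replicate 2 triangle is the highest of the gastrula points.

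Of the 12 entries of the destruction complex and its ubiquitin ligase, none was called between the genotypes at stage 9 and 1 at stage 10.5. That entry was *axin1.S*, a copy of the gene for the scaffold Axin. Its level at stage 10.5 was 33.8 and 45.9 CPM in M/Z and 23.8 and 14.3 CPM in +/Z. The groups did not overlap, M/Z was higher by a log2 value of 1.06 (standard error 0.27, adjusted p = 0.030, edgeR), and without M/Z replicate 2 the value was 0.84 and the call was lost (adjusted p = 0.14, edgeR). At stage 9 it stood at 52.2 and 45.7 CPM against 37.1 and 31.1 CPM, a log2 difference of 0.52 that did not pass (adjusted p = 0.24, edgeR). Over both stages the difference was 0.79 (adjusted p = 0.013, edgeR) and stayed called without M/Z stage 10.5 replicate 2, at 0.68, but not without M/Z stage 9 replicate 1 or +/Z stage 9 replicate 2 (largest adjusted p = 0.065, edgeR). The sum of both *axin1* copies was higher by 0.93 at stage 10.5 (adjusted p = 0.038, edgeR), and without M/Z replicate 2 the value was 0.68 and not called (adjusted p = 0.19, edgeR). At stage 9 the sum differed by 0.36 (adjusted p = 0.40, edgeR).

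The L copy of *axin1* stood at 21.9 and 20.4 CPM in M/Z and 21.3 and 19.1 CPM in +/Z at stage 9, with overlap, and at 7.41 and 11.8 against 7.68 and 5.90 CPM at stage 10.5, also with overlap. It fell between the stages in both genotypes, with a log2 change of −1.57 in +/Z and −1.14 in M/Z, and *axin1.S* fell in +/Z with a log2 change of −0.84. In *axin1.S* the change in M/Z was −0.30 (adjusted p = 0.42, edgeR). *axin2.S*, which encodes a relative of Axin that is itself switched on by Wnt signalling, was low in all 8 libraries. It stood at 0.620 and 1.69 CPM in M/Z and 0.838 and 0.916 CPM in +/Z at stage 9, and at 0.432 and 0.247 against 0.306 and 0.862 CPM at stage 10.5. Its groups overlapped at both stages, and no comparison called it.

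The *apc* copies, for the large scaffold that works with Axin, fell in both genotypes. *apc.L* stood at 68.9 and 88.3 CPM in +/Z at stage 9 and at 19.3 and 18.8 CPM at stage 10.5, a log2 change of −2.05 (adjusted p = 0.00059, edgeR). In M/Z it stood at 94.2 and 69.5 CPM and then at 23.9 and 45.0 CPM, a change of −1.25 (adjusted p = 0.010, edgeR). Both M/Z gastrula libraries lay above both +/Z ones, and M/Z replicate 2 was the highest. The genotype difference at stage 10.5, 0.85, did not pass (adjusted p = 0.083, edgeR), and it was 0.34 without that library. With each library left out in turn, that difference ranged from 0.34 to 1.25. *apc.S* stood at 88.0 and 69.4 CPM in M/Z and 64.7 and 77.0 CPM in +/Z at stage 9, and at 16.7 and 38.4 against 19.7 and 19.4 CPM at stage 10.5. Its groups overlapped at both stages, and it fell, with log2 changes of −1.86 in +/Z and −1.52 in M/Z.

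The GSK3 genes, for the kinase that the signal has to keep from β-catenin, showed no genotype call. *gsk3a.S* rose between the stages in +/Z, from 58.6 and 61.6 CPM to 105.6 and 80.6 CPM (log2 0.63, adjusted p = 0.017, edgeR), and went from 62.3 and 62.7 CPM to 92.6 and 78.4 CPM in M/Z, a change of 0.45 that did not pass (adjusted p = 0.080, edgeR). *gsk3b.L* stood at 6.86 and 5.23 CPM in M/Z and 6.54 and 5.69 CPM in +/Z at stage 9, and at 6.43 and 7.00 against 5.31 and 3.22 CPM at stage 10.5. The groups overlapped at stage 9 and were apart at stage 10.5, where the difference of 0.65 did not pass (adjusted p = 0.19, edgeR). Neither it nor *gsk3a.L*, at 103.5 to 194.8 CPM, was called in any comparison.

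The unsuffixed *csnk1a1* entry and *csnk1a1.L* carry the name of casein kinase 1α, which makes the first phosphorylation of β-catenin. They rose in both genotypes. In the unsuffixed entry the M/Z libraries were at 227 and 227 CPM and the +/Z libraries at 274 and 281 CPM at stage 9, and at 343 and 338 against 428 and 428 CPM at stage 10.5. M/Z lay below +/Z without overlap at both stages, by log2 values of −0.29 and −0.33 that did not pass singly, while their mean of −0.31 did (adjusted p = 0.033, edgeR). Without M/Z stage 10.5 replicate 2 that mean was −0.30 and the call was lost (adjusted p = 0.073, edgeR). The added counts of both entries did not pass (log2 −0.24, adjusted p = 0.080, edgeR). The β-TrCP gene *btrc* was not called between the genotypes. Its L copy fell, with log2 changes of −0.90 in +/Z and −0.49 in M/Z, and its S copy by −0.67 in +/Z.

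The casein kinases 1δ and 1ε, which act on Dishevelled and other pathway proteins, gave 4 entries and no genotype call. *csnk1d.L*, *csnk1e.L* and *csnk1e.S* fell in both genotypes, with log2 changes of −1.35 to −1.56 in +/Z and of −0.83 to −1.18 in M/Z. In each of the 3, the M/Z stage 10.5 replicate 2 library was the highest of the gastrula libraries. *csnk1e.S*, for example, stood at 84.1 and 135.3 CPM in M/Z and at 70.5 and 74.9 CPM in +/Z at stage 10.5, and the difference of 0.59 did not pass (adjusted p = 0.091, edgeR) and was 0.22 without M/Z replicate 2. With each library left out in turn, the *csnk1e.S* difference at stage 10.5 ranged from 0.22 to 0.90. *csnk1d.S*, at 14.8 to 24.4 CPM, was not called in any comparison.

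Among the 4 entries that regulate the destruction complex, 2 were higher in M/Z at stage 9. Frat1, which in the frog is known as GBP, binds GSK3 and takes it from Axin. *frat1.S* stood at 135.5 and 116.0 CPM in M/Z and at 76.2 and 76.9 CPM in +/Z at stage 9. The groups were far apart compared with their spread, and M/Z was 1.64-fold higher (log2 0.72, standard error 0.16, adjusted p = 0.016, edgeR). At stage 10.5 it stood at 76.2 and 72.3 CPM against 55.1 and 49.99 CPM, again without overlap, with a difference of 0.50 that did not pass (adjusted p = 0.065, edgeR). The mean over both stages was 0.61 (adjusted p = 0.0038, edgeR). *frat1.S* fell between the stages in both genotypes, with log2 changes of −0.54 in +/Z and −0.76 in M/Z.

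Tankyrases attach ADP-ribose chains to Axin, which leads to its degradation. *tnks.L* stood at 23.5 and 21.98 CPM in M/Z and at 10.12 and 11.7 CPM in +/Z at stage 9, so M/Z was 2.08-fold higher without overlap (log2 1.06, standard error 0.21, adjusted p = 0.010, edgeR). At stage 10.5 the groups overlapped, with 16.2 and 17.1 CPM in M/Z and 15.6 and 18.6 CPM in +/Z, and the difference was −0.04. The change in the difference between stages, −1.10, had an unadjusted p of 0.0042 and did not pass in edgeR (adjusted p = 0.29), while DESeq2 gave an adjusted p of 0.038. In +/Z *tnks.L* rose by 0.65 (adjusted p = 0.029, edgeR), and in M/Z its change was −0.45 (adjusted p = 0.13, edgeR). The stage 9 calls of *frat1.S* and *tnks.L* were each lost without any 1 of the stage 9 libraries, while their values stayed between 0.60 and 0.83 and between 0.97 and 1.16.

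*tnks2.S*, for the second tankyrase, showed no genotype call and fell, with log2 changes of −1.07 in +/Z and −1.36 in M/Z. *nkd1.L* encodes Naked cuticle, an antagonist that binds Dishevelled. It stood at 12.1 and 11.7 CPM in M/Z and 15.4 and 21.5 CPM in +/Z at stage 9, and the difference of −0.63 did not pass (adjusted p = 0.21, edgeR). It fell, with log2 changes of −1.22 in +/Z and −0.89 in M/Z.

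**Figure D4:**
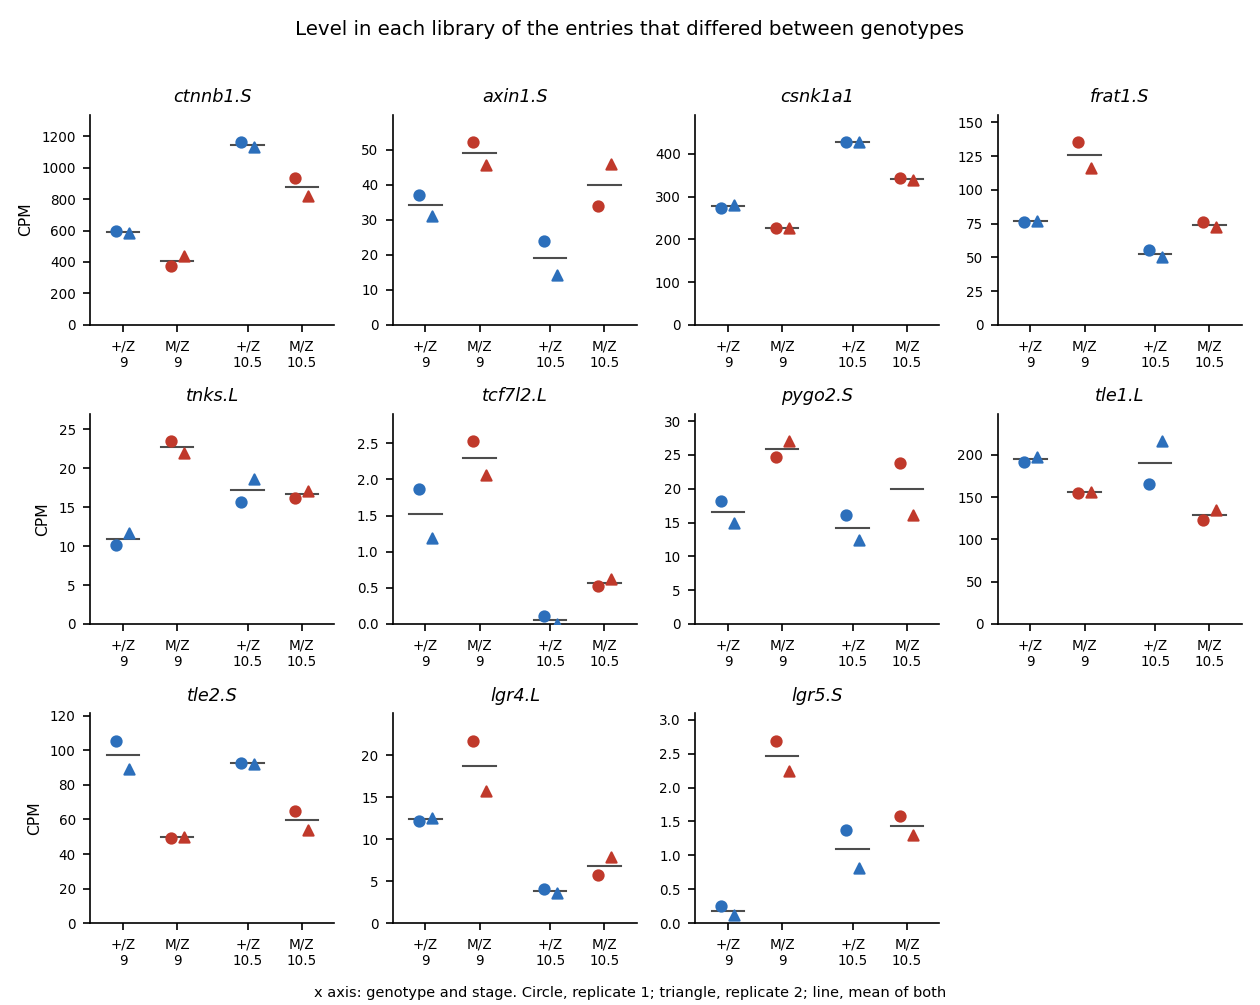
Level in CPM in each of the 8 libraries, 1 panel and 1 scale per member, for the 11 members called between M/Z and +/Z in at least 1 of the comparisons at stage 9, at stage 10.5 or over their mean. Points are single libraries and bars are means of 2. In all 11 panels the M/Z and +/Z points at stage 9 do not overlap. The 11 were chosen by tests on these same values, and the share of all genes without overlap is not given.

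The TCF/LEF factors, which bind DNA and recruit either β-catenin or Groucho, gave 6 entries, with no genotype call at stage 9 and 1 at stage 10.5. *tcf7l2.L* was listed in gastrulae at 18 and 20 counts (0.519 and 0.616 CPM) for M/Z and at 3 and 0 counts (0.115 and 0 CPM) for +/Z. Since +/Z lay at the floor, the M/Z level was at least 4.53-fold higher, taking 3 counts per library as the floor (adjusted p = 0.039, edgeR). Without M/Z replicate 2 the call was lost (adjusted p = 0.11, edgeR). At stage 9 the levels were 2.53 and 2.05 CPM in M/Z and 1.87 and 1.18 CPM in +/Z. These did not overlap, but the difference of 0.58 did not pass (adjusted p = 0.55, edgeR). The entry fell at least 12.2-fold in +/Z, and in M/Z with a log2 change of −2.01 (adjusted p = 0.024, edgeR), which was not called without M/Z stage 10.5 replicate 2, at −2.14.

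*tcf7l1*, known in the frog as Tcf3, is supplied maternally and represses dorsal genes until β-catenin arrives. *tcf7l1.L* stood at 56.7 and 56.5 CPM in M/Z and 41.3 and 43.8 CPM in +/Z at stage 9, and at 112.1 and 67.7 CPM against 156.1 and 109.3 CPM at stage 10.5. M/Z lay above +/Z at stage 9, and at stage 10.5 the groups overlapped, with M/Z replicate 2 lowest. The differences of 0.41 and −0.56 did not pass (adjusted p = 0.33 and 0.16, edgeR), and the second was −0.23 without that library. With each library left out in turn, the second ranged from −0.96 to −0.23. The change between the 2 differences was −0.97, with an unadjusted p of 0.020 and an adjusted p of 0.38 (edgeR). The entry rose in +/Z by 1.64 (adjusted p = 0.00078, edgeR) and in M/Z its change was 0.67 (adjusted p = 0.065, edgeR), or 0.98 and called without M/Z stage 10.5 replicate 2 (adjusted p = 0.0064, edgeR). *tcf7l1.S* stood at 83.1 and 78.3 CPM in M/Z and 72.7 and 75.4 CPM in +/Z at stage 9, and at 59.1 and 61.1 against 90.1 and 55.7 CPM at stage 10.5. The groups were apart at stage 9 and overlapped at stage 10.5, and no comparison called it.

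*lef1* is a TCF-family gene that comes on with zygotic transcription. *lef1.L* was listed in blastulae with 5 and 3 counts for M/Z and 1 and 0 for +/Z. At stage 10.5 it stood at 17.9 and 7.18 CPM in M/Z and at 26.5 and 20.7 CPM in +/Z. The rise in +/Z was at least 223.5-fold, with the floor at 3 counts per library (adjusted p = 2.9e-05, edgeR), and the rise in M/Z had a log2 value of 6.88 (adjusted p = 7.7e-05, edgeR). Both M/Z gastrula libraries lay below both +/Z ones, M/Z replicate 2 lowest, and the difference of −0.91 did not pass (adjusted p = 0.15, edgeR) and was −0.39 without that library. With each library left out in turn, that difference ranged from −1.71 to −0.39. The unsuffixed *lef1* entry, at 1.64 and 0.616 CPM in M/Z and 4.47 and 2.68 CPM in +/Z at stage 10.5, had the same order (log2 −1.66, adjusted p = 0.10, edgeR; −1.11 without M/Z replicate 2). It rose by 5.02 in +/Z (adjusted p = 0.00087, edgeR), where its stage 9 counts were 1 and 5, and its change in M/Z, from 12 and 12 counts, was 1.85 and did not pass (adjusted p = 0.059, edgeR), while without M/Z stage 10.5 replicate 2 it was 2.38 and called (adjusted p = 0.019, edgeR). The genotype difference of unsuffixed *lef1* at stage 10.5 ranged from −2.52 to −1.11 with each library left out in turn. *tcf7.S* fell, with log2 changes of −0.90 in +/Z and −0.91 in M/Z and showed no genotype call.

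Bcl9 links β-catenin to Pygopus, which reads histone methylation, and together they act as coactivators. None of their 8 entries was called at stage 9 or at stage 10.5 alone. *pygo2.S* stood at 24.6 and 27.0 CPM in M/Z and 18.1 and 15.0 CPM in +/Z at stage 9 without overlap, and at 23.9 and 16.1 CPM against 16.0 and 12.4 CPM at stage 10.5. Its log2 differences of 0.64 and 0.49 (0.76 without M/Z stage 10.5 replicate 2) did not pass singly, and their mean of 0.56 did (adjusted p = 0.046, edgeR), but the sum of both *pygo2* copies differed by 0.07 (adjusted p = 0.69, edgeR). Between the stages, *bcl9l.L*, *bcl9l.S*, *pygo1.L* and *pygo2.L* fell in both genotypes, with log2 changes of −0.71 to −3.47 in +/Z and of −0.86 to −2.13 in M/Z, and *pygo1.S* fell in M/Z. *bcl9.L* and *bcl9.S* were not called in any comparison.

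*pygo1.L* had the largest fitted fall of the coactivators in +/Z, from 21.7 and 24.6 CPM to 1.83 and 2.36 CPM (log2 −3.47, adjusted p = 0.00035, edgeR). In M/Z it went from 24.7 and 22.5 CPM to 2.74 and 8.11 CPM (log2 −2.13, adjusted p = 0.0048, edgeR). The genotype difference at stage 10.5, 1.37, did not pass (adjusted p = 0.069, edgeR) and was 0.40 without M/Z replicate 2. With each library left out in turn, that difference ranged from 0.40 to 1.96.

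The Groucho family, called TLE in vertebrates, binds TCF proteins and represses their targets in the absence of β-catenin. Of its 4 entries, 1 was called at stage 9 and 2 at stage 10.5, each lower in M/Z, beside 5.93% and 6.39% of all genes. The other entries, *tle2.L* and *tle4.S*, had log2 differences of −0.02 and 0.27 at stage 10.5, so the calls are not read as a change of the family. *tle2.S* was the member called at both stages. It stood at 49.2 and 49.97 CPM in M/Z and 105.7 and 89.4 CPM in +/Z at stage 9, so M/Z was at 0.509 of the +/Z level (log2 −0.98, standard error 0.17, adjusted p = 0.0050, edgeR). At stage 10.5 it stood at 64.8 and 54.0 CPM against 92.7 and 92.2 CPM, a ratio of 0.643 (log2 −0.64, standard error 0.17, adjusted p = 0.035, edgeR). The groups did not overlap at either stage. Without M/Z stage 10.5 replicate 2 the second difference was −0.50 and not called (adjusted p = 0.18, edgeR), and the stage 9 call was lost without any 1 of 3 of the stage 9 libraries, with values from −1.09 to −0.84. The mean over both stages was −0.81 (adjusted p = 0.0011, edgeR).

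*tle2.L* was called in no comparison. It stood at 113.3 and 135.6 CPM in M/Z and 144.5 and 137.6 CPM in +/Z at stage 9, with both M/Z libraries below both +/Z ones (log2 −0.18), and at 158.6 and 151.8 against 151.6 and 162.8 CPM at stage 10.5, with overlap. The difference between the copies was not tested. The L copy held 69.7% and 73.1% of the *tle2* counts of the M/Z blastula libraries and 57.8% and 60.6% of the +/Z ones, and 71.0% and 73.8% against 62.05% and 63.8% at stage 10.5. Added together, the *tle2* copies differed by −0.46 at stage 9 and −0.22 at stage 10.5, which did not pass (adjusted p = 0.066 and 0.33, edgeR), and by −0.34 over both stages, which did (adjusted p = 0.035, edgeR), though not without M/Z stage 10.5 replicate 2 (−0.30, adjusted p = 0.093). How reads that fit both copies were divided between them was not tested.

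*tle1.L* stood at 122.9 and 134.6 CPM in M/Z and at 165.2 and 216 CPM in +/Z at stage 10.5 (log2 −0.57, standard error 0.16, adjusted p = 0.048, edgeR). The groups did not overlap. Without M/Z replicate 2 the difference was −0.62 and was not called (adjusted p = 0.11, edgeR). At stage 9 it stood at 155.2 and 156.3 CPM against 192 and 197 CPM, also apart, a difference of −0.32 that did not pass (adjusted p = 0.24, edgeR). *tle4.S* stood at 108 and 105 CPM in M/Z and 137 and 148 CPM in +/Z at stage 9, and at 22.5 and 49.6 against 33.4 and 26.6 CPM at stage 10.5. It fell in both genotypes, with log2 changes of −2.25 in +/Z and −1.56 in M/Z, and the genotype difference was not called at either stage.

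The last 7 entries concern receptor turnover. The ubiquitin ligases Znrf3 and Rnf43 remove Frizzled receptors from the membrane, and Lgr4 and Lgr5, bound by R-spondins, stop them. *lgr5.S* had the largest fitted genotype difference of the 49 at stage 9. It stood at 2.69 and 2.25 CPM in M/Z (113 and 80 counts) and at 0.258 and 0.115 CPM in +/Z (8 and 3 counts). M/Z was 12.8-fold higher (log2 3.68, standard error 0.56, adjusted p = 0.0025, edgeR), and the log2 value stayed between 3.24 and 4.39 with each library left out, called every time. At stage 10.5 the groups overlapped, with 1.59 and 1.29 CPM in M/Z and 1.38 and 0.817 CPM in +/Z (log2 0.39, adjusted p = 0.62, edgeR). The change in the difference, −3.29, had an unadjusted p of 0.0012, an adjusted p of 0.19 in edgeR and of 0.029 in DESeq2. The entry rose in +/Z by 2.51 (adjusted p = 0.0057, edgeR) and in M/Z its change was −0.78 (adjusted p = 0.22, edgeR).

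*lgr5.L* took 63.8% and 52.7% of the *lgr5* counts in M/Z at stage 9, against 95.8% and 98.03% in +/Z. It stood at 4.74 and 2.50 CPM in M/Z and 5.93 and 5.69 CPM in +/Z, without overlap (log2 −0.68, adjusted p = 0.34, edgeR). The sum of the copies did not differ by the test (log2 0.02, adjusted p = 0.98, edgeR). *lgr5.L* fell between the stages in both genotypes, with log2 changes of −2.17 in +/Z and −1.33 in M/Z. So the *lgr5* copies moved in opposite directions in +/Z, and with them added the stage change in +/Z was −1.34. The division of shared reads between the copies was not tested.

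*lgr4.L* stood at 21.7 and 15.8 CPM in M/Z and 12.2 and 12.6 CPM in +/Z at stage 9, and at 5.79 and 7.83 against 4.05 and 3.54 CPM at stage 10.5. M/Z lay above +/Z without overlap at both stages. The differences of 0.60 and 0.84 did not pass singly (adjusted p = 0.17 and 0.070, edgeR), while their mean of 0.72 did (adjusted p = 0.020, edgeR). It fell, with log2 changes of −1.70 in +/Z and −1.46 in M/Z. *lgr4.S* stood at 40.6 and 37.4 CPM against 25.9 and 25.7 CPM at stage 9, a difference of 0.60 that did not pass (adjusted p = 0.076, edgeR), and its groups overlapped at stage 10.5. Over both stages, the sum of the *lgr4* copies differed by 0.40, which did not pass (adjusted p = 0.057, edgeR).

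*znrf3.L* stood at 12.7 and 14.0 CPM in M/Z and 16.1 and 15.2 CPM in +/Z at stage 9, and at 2.02 and 5.49 against 3.52 and 1.54 CPM at stage 10.5. It fell in both genotypes, with log2 changes of −2.62 in +/Z and −1.83 in M/Z, and *rnf43.S* fell with a log2 change of −1.75 in +/Z. *znrf3.S* was called higher at stage 10.5 in M/Z (log2 1.18, adjusted p = 0.049, edgeR), though not without M/Z stage 10.5 replicate 2 (1.14, adjusted p = 0.11), and in +/Z its change was 1.06 (adjusted p = 0.063, edgeR). None of these 3 was called between the genotypes.

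The table also lists 3 entries under LOC numbers that RefSeq gives symbols of the list, and these were not counted as members. LOC108718903 is *hwa.L*, the L copy of *huluwa*, a maternal gene needed for dorsal axis formation whose membrane protein promotes the loss of Axin. It stood at 35.3 and 32.0 CPM in M/Z and 22.98 and 26.5 CPM in +/Z at stage 9 (log2 0.45, adjusted p = 0.29, edgeR), and at 3.23 and 4.81 against 1.68 and 2.22 CPM at stage 10.5. The groups did not overlap at either stage, and the second difference of 1.04 passed (adjusted p = 0.039, edgeR). Without M/Z replicate 2 it was 0.74 and not called (adjusted p = 0.18, edgeR). Over both stages the mean log2 difference of *hwa.L* was 0.75 (adjusted p = 0.017, edgeR), and 0.60 without M/Z stage 10.5 replicate 2. Between the stages it fell, with log2 changes of −3.67 in +/Z and −3.07 in M/Z. LOC108707999, *rnf43.L*, had less RNA in M/Z blastulae, at 1.05 and 0.844 CPM against 2.26 and 3.28 CPM in +/Z (log2 −1.54, adjusted p = 0.040, edgeR). LOC108714955, *nkd1.S*, was not called between the genotypes.

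The M/Z stage 10.5 replicate 2 library had the highest level among the gastrula libraries for most members that fell. Of the 23 members that fell in +/Z, it lay above M/Z replicate 1 in 20 and above both +/Z gastrula libraries in 18, while M/Z replicate 1 lay above both in 8. As a log2 ratio to the +/Z stage 9 mean, the median of the 23 was −0.85 in that library, −1.51 in M/Z replicate 1 and −1.40 and −1.53 in the +/Z gastrula libraries. Over all 5905 genes that fell in +/Z the same medians were −0.72, −1.20, −1.36 and −1.37. Both sets were selected by low +/Z stage 10.5 values against +/Z stage 9, which favours M/Z gastrula libraries lying above +/Z ones. The order of the 2 M/Z libraries does not depend on those values. The library was thus the highest of the gastrula libraries for the members and for all falling genes alike, and it held the lowest sums of gastrula genes and Wnt8 targets. Whether its embryos were at an earlier point of stage 10.5, or belong to the variable phenotype that the paper describes, was not tested.

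**Figure D5:**
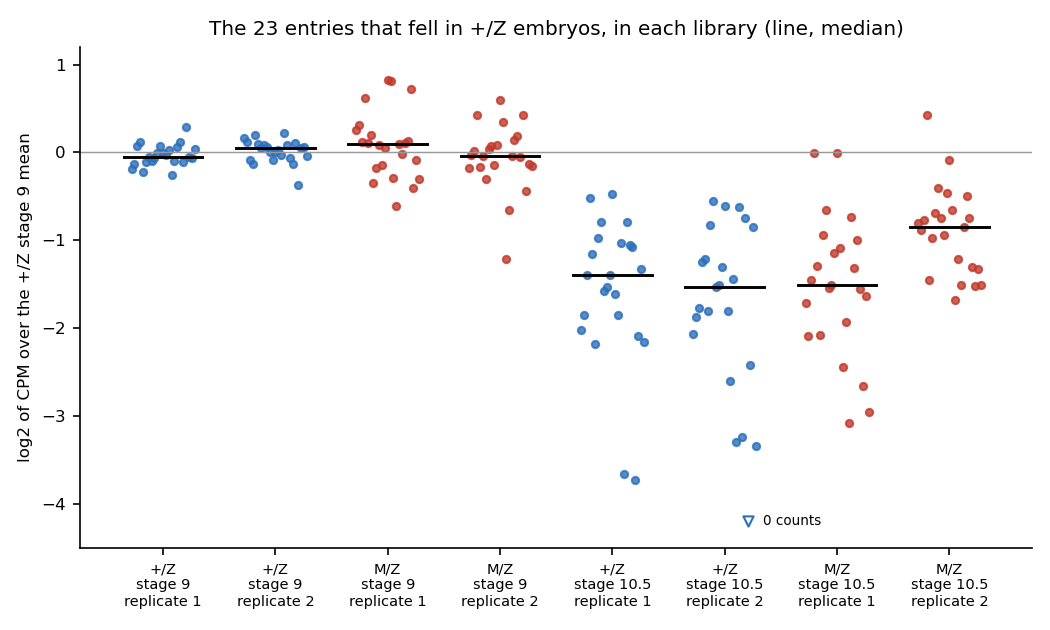
Log2 ratio of CPM to the mean of the +/Z stage 9 libraries for the 23 members that fell in +/Z embryos, 1 column of points per library, with a line at each median; the triangle marks *tcf7l2.L* at 0 counts. The stage 9 columns centre near 0, and among the gastrula columns M/Z replicate 2 has its median at −0.85, above −1.51 in M/Z replicate 1 and −1.40 and −1.53 in +/Z.

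Spread between replicates was wider at stage 10.5. The median absolute log2 difference between the 2 libraries of a group was 0.134 in M/Z and 0.1796 in +/Z at stage 9, and 0.317 and 0.361 at stage 10.5. For all genes it was 0.215 and 0.227 at stage 9 and 0.365 and 0.370 at stage 10.5.

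In the 19 symbols with 2 entries, the fitted genotype differences had the same sign in 12 at stage 9 and 15 at stage 10.5. In none were both entries called between the genotypes at either stage or over the mean, and in 3, 2 and 7 of them 1 entry was. Between the stages, both entries were called in the same direction in 8 in +/Z and 6 in M/Z, and in opposite directions in 1 each, *lgr5* in +/Z and *znrf3* in M/Z.

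Beside the members, 73 entries of a list of other genes linked to the pathway were tested, with L and S copies counted singly. The list named Dishevelled, further casein kinases, chromatin partners, corepressors and the endoderm factors *sox17a* and *sox17b*, among others. In M/Z embryos 1 entry was called higher and 7 lower in the blastula, and 2 higher and 4 lower in the gastrula. In both directions together these are 11% and 8.22% of the list, not above the 11.9% and 13.1% of all genes. The lower calls alone were 9.59% and 5.48%, beside 5.93% and 6.39% of all genes. Over the mean of both stages 28.8% were called, beside 24% of all genes. Of these, 3 were higher (4.11%, beside 12% of all genes) and 18 lower (24.7%, beside 12%). The median log2 difference over the mean was −0.15, against 0.03 for all genes, and −0.17 without M/Z stage 10.5 replicate 2. Without that library fewer entries of the list were called lower, at stage 10.5 and over the mean. The share of all genes called lower shrank as well. *csnk1g2.L*, for casein kinase 1γ2, of the kinase group that phosphorylates the LRP6 coreceptor, stood at 181 and 161 CPM in M/Z and 354 and 324 CPM in +/Z at stage 9. At stage 10.5 it stood at 232 and 233 CPM against 454 and 440.1 CPM. The groups did not overlap at either stage, and the log2 differences were −0.98 and −0.94 (adjusted p = 0.0017 and 0.0026, edgeR), the second called also without M/Z replicate 2. *smarca4.L*, for the Brg1 chromatin remodeller, was lower, with a log2 difference of −1.32 at stage 9 (adjusted p = 0.0025, edgeR). *ctbp1.L*, for a corepressor, was lower, with a log2 difference of −1.03 and −1.11 at the stages (adjusted p = 0.032 and 0.025, edgeR), while *ctbp1.S* was higher by 0.87 at stage 10.5 (adjusted p = 0.022, edgeR). Neither *ctbp1* copy was called at stage 10.5 without M/Z replicate 2 (−1.04 and 0.77, adjusted p = 0.10 and 0.079, edgeR).

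Of 11 entries of maternal β-catenin targets, such as *siamois* and *nodal3*, 2 were called at stage 9 and 3 at stage 10.5, each lower in M/Z, or 18.2% and 27.3% beside 5.93% and 6.39% of all genes. Their median log2 difference was −1.28 and −0.47. Without M/Z stage 10.5 replicate 2, 1 was called at stage 10.5 and the median was −0.07. Their summed levels overlapped at both stages, at 169 and 208 CPM in M/Z and 309 and 198 CPM in +/Z at stage 9, and at 792 and 695 against 615 and 727 CPM at stage 10.5. Such sums are weighted to the most abundant entries. Singly, 10 of the 11 differences lay below 0 at stage 9 and 8 at stage 10.5, while 49.7% and 51.2% of all genes lay above 0. By RT-PCR, the paper reports reduced *sia1* and *nodal3.1* in embryos of mutant mothers. Of 28 entries of Wnt8 targets, 3 were called at stage 9 and 2 at stage 10.5, again lower in M/Z (10.7% and 7.14%, beside the same shares of all genes), and the median log2 difference was −0.84 and −0.73. Without that library 1 was called at stage 10.5, higher in M/Z, and the median was −0.26. From stage 9 to 10.5, 24 of these 28 rose in +/Z and 19 in M/Z (23 without that library), beside 23.3% and 16.7% of all genes, and none fell.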

How the data were processed

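Whole-embryo RNA was prepared with a stranded kit that captures polyadenylated RNA and was sequenced on 1 lane. The authors aligned reads with bowtie2 to genome version 9.2 and deposited RSEM expected counts per gene, which were whole numbers as deposited. RSEM divides reads that fit several genes, so the split between homeologs, and between unsuffixed and suffixed entries, is uncertain. RefSeq names come from another assembly, so neither coordinates nor sequences are given, and 42 of the 49 identifiers matched it. Total counts of 24720921 to 37265579 limit precision.

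Groups were taken from the labels. Counts were filtered (filterByExpr), scaled by TMM and fitted over all 8 libraries with 4 group means by the edgeR 4.0.16 quasi-likelihood test in R 4.3.3, two-sided, p-values adjusted after Benjamini-Hochberg and called under 0.05. Summed copies were fitted likewise. DESeq2 1.42.0, other scalings, filters and stage-wise fits, a replicate block and omission of each library were alternatives. Scripts were tested on simulated counts. The members and lists were chosen with earlier results of these data known. Values in every library were given for members called between genotypes, for *ctnnb1*, *axin1*, *axin2*, *apc*, *gsk3b*, *tcf7l1*, *lef1*, *frat1* and *hwa*, and for the 4 largest rises and 4 largest falls called in +/Z. Other members with values were chosen after these were seen.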

Additional observations from a re-analysis of the deposited data

How the results depend on the processing

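With 2 libraries per group, the counts of called members moved with the setting. The share of all genes called moved too and is not given for each setting, so these counts are not read as results about the members. At stage 9, the 5 calls became 3 with at least 10 counts required in every library, 3 with homeologs summed, 13 with the stage 9 libraries alone, and 1 to 6 with 1 library left out. At stage 10.5, the 4 calls became 7 with library totals, 10 without a filter, 2 with at least 10 counts, 8 with DESeq2, 0 with the stage 10.5 libraries alone and 0 to 15 with 1 library left out. Over the mean, the 11 calls became 7 with homeologs summed and 4 to 17 with 1 library left out. With homeologs summed and M/Z stage 10.5 replicate 2 left out, chosen after seeing the data, there were 0 calls at stage 10.5 and 4 over the mean. The genotype difference between stages went from 0 calls to 3 without a filter, 2 with DESeq2 and 0 to 3 with 1 library left out. The 27 stage calls in M/Z ranged from 11 to 32 with 1 library left out. The stage change of *lgr5* in +/Z reversed from the value of *lgr5.S* to −1.34 with homeologs summed, because *lgr5.L* fell. A replicate block gave 4 genotype calls in blastulae, 0 in gastrulae, 7 over their mean, and 26 and 21 between stages in +/Z and M/Z. Differences between replicates 1 and 2 in M/Z and in +/Z had correlations over genes of −0.02 at stage 9 and −0.007 at stage 10.5. These have 1 difference per group and cannot decide whether equal numbers pair the samples. Of 96 alternative values of these counts, 63 stayed within 1.5 times. Of 780 for single called members, 636 kept direction and call, 143 kept direction only and 1 reversed. The 780 pool genotype calls with stage calls. Counting the main fit but not summed copies, the stage 10.5 genotype calls of *axin1.S*, *tle2.S* and *tle1.L* were made in 8, 6 and 5 of 16 settings. That of *tcf7l2.L* was made in 7 of 15. At stage 9, *tle2.S*, *frat1.S*, *tnks.L* and *ctnnb1.S* were called in 13, 12, 12 and 10 of 16, and *lgr5.S* in 15 of 15.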
